A study of Mus musculus with 24 samples.

Results

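The response of *Bcl3-/-* skeletal muscle to hind limb unloading was measured on 8 of the 24 arrays of the study, 4 from hind limb unloaded (HU) and 4 from weight bearing (WB) mice. The members were all arrays whose sample titles name the *Bcl3-/-* genotype, and the comparison was HU minus WB across all genes. All 8 mice were male, carried the Bcl3tm1Ver allele (strain FVB;129P2-Bcl3tm1Ver/J) and were 6 weeks old when bought. HU mice had the hind limbs raised off the floor for 6 days after 3 days of acclimation, and WB mice walked freely. Total RNA of the gastrocnemius and plantaris, the large plantar flexor muscles of the calf, was hybridised to Affymetrix Mouse Genome 430A 2.0 arrays. The deletion is constitutive, so by design every cell type of the muscle lacks the gene, in both groups. The remaining arrays came from wild type and *Nfkb1-/-* mice of other strain backgrounds and lay on another intensity scale, with array medians of 11.6 to 11.9 against 81.1 to 86.8 for the *Bcl3-/-* arrays, and were not compared here.

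Bcl-3 is an atypical member of the IκB protein family. It enters the nucleus, binds homodimers of the NF-κB subunits p50 and p52, and can turn these dimers, which lack an activation domain of their own, into activators of transcription. Muscle that no longer bears weight loses protein, because synthesis falls and degradation by the ubiquitin-proteasome and lysosomal systems rises, and its slow oxidative fibers tend to take on features of fast glycolytic fibers. The study looked for genes that rise with unloading in wild type muscle and do not rise in knockout muscle. It reported no statistical difference in gastrocnemius and plantaris mass, relative to body mass, between HU and WB *Bcl3-/-* mice. The question here is which genes respond to unloading when Bcl-3 is missing.

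Intensities are the deposited linear values, and a fold change is the difference of mean log2 intensity, HU minus WB, with its standard error (SE) from limma. The 3'/5' ratios of the control probe sets were 1.02 to 1.06 for *Gapdh* and 0.842 to 0.922 for β-actin over the 8 arrays. The HU arrays resembled each other more (mean correlation with their own group 0.994 to 0.996) than the WB arrays did (0.985 to 0.991). WB replicate 2 lay apart on the first principal component, and WB replicate 4 lay apart on the next one and had the lowest median, at 81.1. Markers of skeletal muscle fibers were abundant on every array, with *Acta1*, the skeletal actin, at 22310 ± 585 in HU and 21730 ± 1547 in WB muscle (SD, n = 4 each). The single listed probe set for *Bcl3* had intensities of 44.0, 50.3, 43.1 and 47.0 on the HU arrays, against 42.5, 56.6, 42.6 and 50.8 on the WB arrays. On each array between 34.3% and 41.0% of probe sets were dimmer. No wild type array of this run was analysed, so whether these values are background of the probe set could not be told, and the deletion could not be checked.

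Probe sets above an intensity of 20 on at least 4 of the 8 arrays entered the test and were called at a Benjamini-Hochberg adjusted p under 0.05 over all probe sets tested. Of 19285 probe sets tested, 799 rose (614 genes) and 242 fell (182 genes), which is 5.40% called in either direction, 4.14% higher and 1.25% lower. The HU and WB arrays did not overlap for 998 of the 1041 calls, and for 15.4% of all probe sets tested. The largest rises and falls described below were taken from calls without overlap, so their lack of overlap follows from that choice. Most calls were small, with a median log2 fold change of 0.52 among the rises and −0.66 among the falls, and 40 rises and 47 falls reached 2-fold. Rises made up 76.8% of the calls, a share that became 58.1% when the arrays were quantile normalised again and 57.4% without WB replicate 4. Leaving out 1 array at a time gave 164 to 933 rises and 67 to 351 falls. In all 8 such fits 142 of the rises and 60 of the falls were called. The plot of fold change against intensity shows the called probe sets over the whole intensity range.

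**Figure D1:**
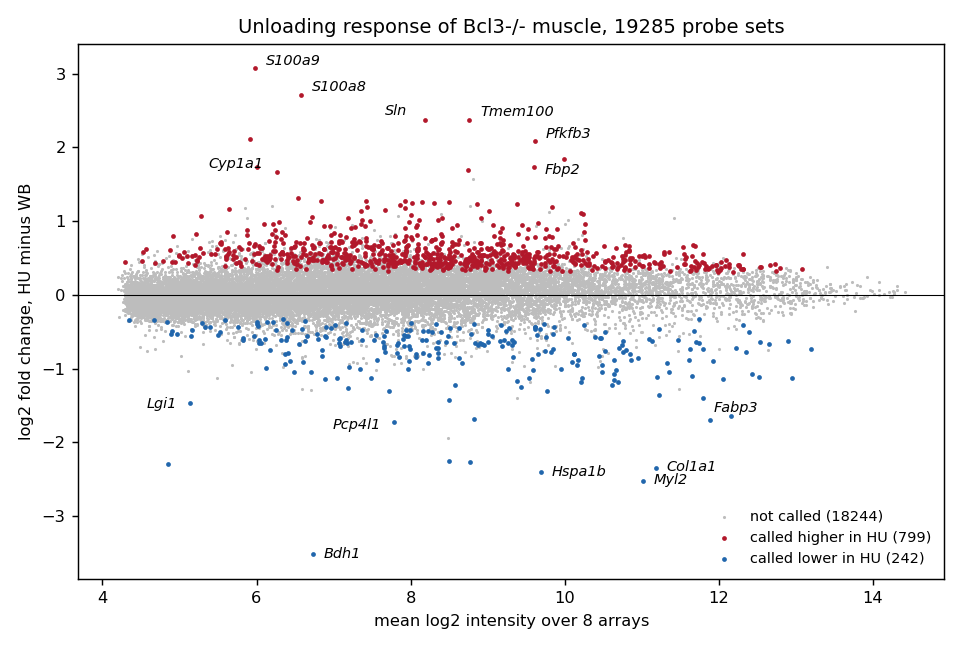
Each point is 1 of the 19285 probe sets tested, with its mean log2 intensity over the 8 *Bcl3-/-* arrays on the x axis and its log2 fold change (HU minus WB) on the y axis; 799 probe sets called higher in HU are red, 242 called lower are blue and the others grey. *S100a9* (3.07) lies at the top and *Bdh1* (−3.52) at the bottom.

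The largest rises were those of *S100a9* and *S100a8*, genes on chromosome 3 for the calcium-binding subunits of calprotectin, a protein that neutrophils carry in large amounts. *S100a9* had intensities of 244, 292, 189 and 83.9 on the HU arrays, against 21.9, 16.4, 21.4 and 29.4 on the WB arrays. The lowest HU array, replicate 4, still lay above the highest WB array, and the log2 fold change was 3.07 (SE 0.33, adjusted p = 0.0016). With WB values this close to the lowest intensities measured, how large the rise is remains uncertain. *S100a8* had 333, 374, 232 and 122 on the HU arrays and 39.4, 40.2, 44.9 and 27.1 on the WB arrays (2.71, SE 0.30, adjusted p = 0.0021). Both genes were thus lowest among HU arrays in replicate 4 and called in all 8 fits without 1 array. *Lcn2*, an iron-siderophore binding protein of neutrophil granules and of the acute phase, had 101, 182, 251 and 41.6 on the HU arrays and 35.4, 44.2, 32.9 and 30.0 on the WB arrays. Its groups overlap, its log2 fold change was 1.74 (SE 0.44, adjusted p = 0.047), and of the fits without 1 array only that without HU replicate 4 called it (adjusted p up to 0.12, without HU replicate 3). *Mmp8*, the neutrophil collagenase, rose by 0.46 and lay near the floor of the arrays (26.8 ± 1.63 in HU and 19.4 ± 1.47 in WB, n = 4 each), and 5 of the 8 fits without 1 array called it.

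These 4 genes were the only called members of 16 neutrophil markers measured, with 0 lower and a list median of 0.06, beside 5.43% of all 11095 genes called in either direction, 4.06% higher, and a median of 0.01 over all genes. Among the granule proteins that define neutrophils, *Mpo* (myeloperoxidase) averaged 20.5 in HU and 23.7 in WB muscle, *Ltf* (lactoferrin) 21.6 and 20.9, *Elane* (neutrophil elastase) 42.6 and 40.9, *Camp* (cathelicidin) 42.7 and 32.5, and *Ngp* (neutrophilic granule protein) 88.2 and 75.7. None of these 5 was called, with adjusted p values of 0.51 or more. The summed intensity of the 16 markers ran from 789.5 to 1463 on the HU arrays and from 629.7 to 730.7 on the WB arrays. This sum includes *S100a8*, *S100a9* and *Lcn2*, so it restates their rises and does not show a rise of the other markers. In a piece of whole muscle, fewer or more cells of a type and less or more RNA per cell cannot be told apart. Macrophage markers gave 0 rises and 1 fall, *C1qc* of complement C1q (−0.63, adjusted p = 0.047), among 22, with a median of −0.17, and *Cd68* was 106 ± 14.0 in HU and 127 ± 25.4 in WB muscle (SD, n = 4 each). *C1qc* was called in 1 of the 8 fits without 1 array, that without WB replicate 4. Markers of T and B cells (9 measured), erythroid cells (5) and Schwann cells (8) gave no call.

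*Sln* encodes sarcolipin, a small membrane peptide that binds the calcium pump of the sarcoplasmic reticulum and uncouples ATP use from calcium uptake. Its intensities were 529, 570, 744 and 847 on the HU arrays, against 113, 140, 135 and 124 on the WB arrays, and the lowest HU value was far above the highest WB value. The log2 fold change was 2.37 (SE 0.15, adjusted p = 4.0e-05), and leaving out 1 array left an adjusted p of 0.00066 at most. Of 18 calcium handling genes measured, *Cacng1*, the γ subunit of the muscle calcium channel, also rose (0.53) and *Rcan2*, a calcineurin regulator, fell (−0.55), with a list median of 0.10. Rises were 11.1% and falls 5.56% of the list, beside 4.06% and 1.38% of all genes. The pumps on which sarcolipin acts gave 1 call, with *Atp2a1* of fast fibers at 15050 ± 288 in HU and 15390 ± 1529 in WB muscle (SD, n = 4 each) and *Atp2a2* of slow fibers lower in HU muscle, at 2771 ± 362 in HU and 4327 ± 409 in WB muscle (−0.65, adjusted p = 0.013). The difference between the responses of the 2 pump genes was not tested. *Cacng1* was called in 5 and *Rcan2* in 6 of the 8 fits without 1 array, with adjusted p up to 0.082 (without HU replicate 3) and 0.068 (without HU replicate 1).

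A pair of enzymes of fructose phosphate metabolism rose. *Pfkfb3* makes fructose 2,6-bisphosphate, the allosteric activator of glycolysis, and had 1909, 1510, 1257 and 1859 on the HU arrays and 489, 307, 328 and 428 on the WB arrays (2.08, SE 0.17, adjusted p = 0.00040). *Fbp2*, the muscle fructose bisphosphatase, had 1425, 1517, 1639 and 1141 on the HU arrays and 428, 424, 443 and 406 on the WB arrays (1.74, SE 0.11, adjusted p = 4.7e-05). Neither gene's groups came near each other, and each was called in all 8 fits without 1 array. Of the 26 genes of the glycolysis and glycogen list, 2 rose (*Pfkfb3* and *Phka1*, a phosphorylase kinase subunit, 0.39), which is 7.69% beside 4.06% of all genes, and 1 fell (*Ldhb*, the lactate dehydrogenase subunit of oxidative tissue, −1.05), 3.85% beside 1.38%, with a list median of 0.05. The muscle lactate dehydrogenase *Ldha* averaged 12790 in HU and 11810 in WB muscle and the glucose transporter *Slc2a4* 2724 and 2778, and neither was called. *Phka1* was called in 3 of the 8 fits without 1 array, with an adjusted p up to 0.11 (without HU replicate 3).

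**Figure D2:**
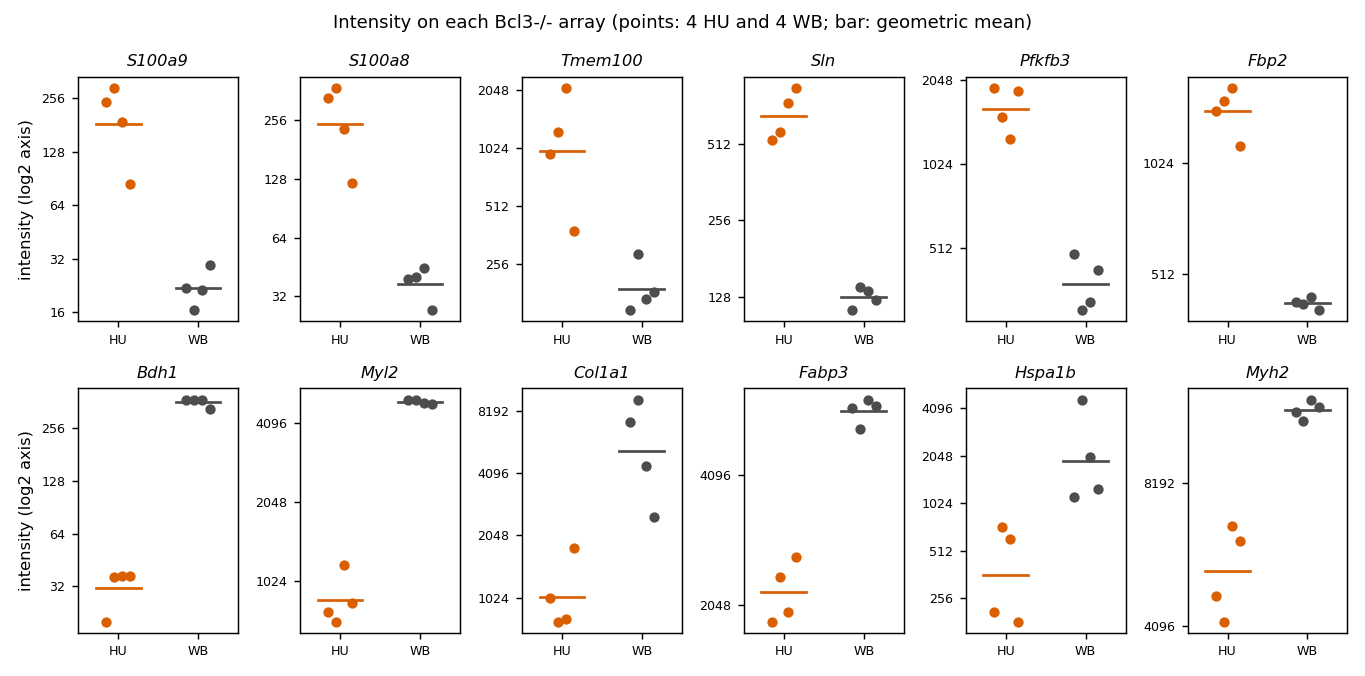
Intensity of 12 genes on each *Bcl3-/-* array, with the 4 HU arrays (orange) left of the 4 WB arrays (grey); the y axes are log2 axes with a range of their own, and the bar is the geometric mean. In all 12 genes the HU and WB points do not overlap, which for all but *Myh2* was a condition of their choice. The spread within a group is small for *Sln*, *Fbp2* and *Myl2* and wide for *Tmem100* in HU and *Col1a1* and *Hspa1b* in WB muscle.

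Genes of slow fibers fell together. *Myl2*, the regulatory light chain of slow and cardiac myosin, had 784, 718, 1177 and 845 on the HU arrays, against 5052, 5015, 4897 and 4878 on the WB arrays (−2.52, SE 0.14, adjusted p = 1.2e-05). Of 13 slow fiber isoforms measured, 9 fell and 0 rose, with a median of −0.65, beside 1.38% of all genes called lower. After *Myl2* came *Tnni1*, slow troponin I (−1.18), *Tnnc1*, slow troponin C (−0.92), *Myl3*, the slow essential light chain (−0.90), *Casq2*, the calsequestrin of slow and cardiac muscle (−0.78), and *Myh7*, the slow myosin heavy chain, at 2757 ± 217 in HU and 4583 ± 462 in WB muscle (−0.73, adjusted p = 0.0054). The falls were of unequal size, since *Tnnt1*, slow troponin T, had a log2 fold change of −0.29 that was not called (adjusted p = 0.084). *Tpm2*, the tropomyosin β chain, which is not on this list, fell by 1.36 and ran from 1191 to 1718 on the HU arrays and from 2674 to 5047 on the WB arrays. Of the calls of the list, *Myl2*, *Tnnc1*, *Myl3*, *Myh7* and *Casq2*, were made in all 8 fits without 1 array, whereas *Atp2a2* was lost without HU replicate 1 or HU replicate 3 (adjusted p up to 0.056), *Tpm3*, the slow tropomyosin (−0.64), was lost without HU replicate 3 (0.060), *Myoz2* of the Z-disc held in 2 of the 8 fits, and *Tnni1* was lost without HU replicate 1 (adjusted p = 0.056).

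Fast fiber isoforms gave 1 call, a fall (7.14% of the list beside 1.38% of all genes), and 0 rises. *Myh2*, the myosin heavy chain of type IIa fibers, the fast oxidative type, had 4738, 4174, 6639 and 6196 on the HU arrays and 11580, 11090, 12320 and 11880 on the WB arrays (−1.13, SE 0.14, adjusted p = 0.0032), and was called in all 8 fits without 1 array. *Myh4* of type IIb fibers averaged 16560 ± 173 in HU and 15960 ± 1489 in WB muscle and *Myh1* of type IIx fibers 10240 ± 561 and 10410 ± 690 (SD, n = 4 each). The other 13 of the 14 fast isoforms measured were not called, and the list median was 0.00. Mean log2 differences from the WB mean ran from −0.91 to −0.46 over the HU arrays and from −0.11 to 0.05 over the WB arrays for the slow list, and from −0.08 to −0.04 and from −0.07 to 0.03 for the fast list.

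The deepest fall of any called probe set was that of *Bdh1*, the mitochondrial enzyme that oxidises β-hydroxybutyrate, the main circulating ketone body. It had 20.1, 36.1, 36.9 and 36.5 on the HU arrays, against 374, 372, 372 and 329 on the WB arrays, and its log2 fold change was −3.52 (SE 0.18, adjusted p = 8.4e-06). Since the HU values lie close to the floor of the arrays, the size of this fall is uncertain. Its other probe set, at 12.4 to 14.2 on the HU arrays and 58.9 to 68.5 on the WB arrays, passed the intensity filter only through the WB group, so no fold is given for it. *Oxct1*, which activates ketone bodies in the next step, had 1927, 2284, 2230 and 2359 on the HU arrays and 4764, 5547, 4530 and 4115 on the WB arrays (−1.10, SE 0.11, adjusted p = 0.0012). The 2 other genes of ketone body use measured, the thiolase *Acat1* (−0.25) and the transporter *Slc16a1* (−0.36), were not called.

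Oxidation of fatty acids and the citrate cycle gave 4 falls and 0 rises among 33 genes, with a median of −0.17. That is 12.1% called lower, beside 1.38% of all genes. *Fabp3*, the fatty acid binding protein of heart and oxidative muscle, had 1869, 2370, 1968 and 2633 on the HU arrays and 5831, 5232, 6112 and 5894 on the WB arrays (−1.40, SE 0.12, adjusted p = 0.00040). *Idh2*, mitochondrial isocitrate dehydrogenase, fell by 1.07, *Hadha*, the trifunctional protein subunit of β-oxidation, by 0.62 and *Mdh1*, cytosolic malate dehydrogenase, by 0.41. *Lpl*, lipoprotein lipase, which releases fatty acids from circulating fat, fell by 0.63, and *Ckmt2*, the mitochondrial creatine kinase of muscle, by 0.62. Citrate synthase (*Cs*), often used as a measure of mitochondrial content, averaged 6733 ± 270 in HU and 6852 ± 297 in WB muscle (SD, n = 4 each). Among 46 genes of oxidative phosphorylation 2 fell (4.35% beside 1.38% of all genes), *Sdhc* (−0.62) and *Ndufs1* (−0.33), 0 rose and the median was −0.08. *Ppargc1a*, the coactivator PGC-1α that drives mitochondrial biogenesis, had 298, 303, 278 and 327 on the HU arrays and 431, 448, 545 and 484 on the WB arrays (−0.66, SE 0.10, adjusted p = 0.0076). *Fabp3*, *Idh2*, *Lpl*, *Ckmt2* and *Ppargc1a* were called in all 8 fits without 1 array, while *Mdh1* was called in 2 of them and *Hadha*, *Sdhc* and *Ndufs1* in 1 each (adjusted p up to 0.13 to 0.15, without HU replicate 1 or HU replicate 3).

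Many genes of the extracellular matrix fell. Of 35 collagens and matrix enzymes measured, 15 fell and 0 rose, 34 had a negative value, and the median was −0.62, beside 1.38% of all genes called lower. *Col1a1*, the α1 chain of type I collagen, had 1013, 782, 802 and 1772 on the HU arrays, against 7239, 9284, 4447 and 2520 on the WB arrays (−2.35, SE 0.38, adjusted p = 0.0095). HU replicate 4 was the highest HU array and WB replicate 4 the lowest WB array, and the groups did not overlap. Its brighter probe set had 2324, 1351, 1454 and 4321 on the HU arrays and 6884, 7452, 7739 and 5507 on the WB arrays and gave a smaller fall (−1.70, SE 0.31, adjusted p = 0.015), which was lost without HU replicate 3 (adjusted p = 0.052). The same order held for *Col1a2*, the other chain of type I collagen, with 3032, 1522, 1721 and 5667 on the HU arrays and 8744, 8786, 8611 and 6427 on the WB arrays (−1.64, SE 0.34, adjusted p = 0.024). A brighter probe set of *Col1a2*, at 7430 ± 1902 in HU and 12170 ± 1037 in WB muscle, gave −0.74, so its probe sets differ in size but not in sign. *Col3a1* of type III collagen fell by 1.69 and 1.11 in its 2 named probe sets, *Col15a1* of the basement membrane zone by 1.30, and the type VI chains *Col6a1*, *Col6a2* and *Col6a3* by 0.95, 1.05 and 0.88. *Serpinh1*, the collagen chaperone HSP47, had 378, 366, 409 and 710 on the HU arrays and 1362, 1042, 1168 and 768 on the WB arrays (−1.25, adjusted p = 0.015). *Fn1* (fibronectin), *Eln* (elastin), *Sparc*, *Postn* (periostin) and *Col4a1* of the basement membrane fell by 0.64 to 0.88. The matrix proteases *Mmp2*, *Mmp3* and *Mmp14* were at −0.19, −0.12 and −0.03, and were not called.

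Matricellular and proteoglycan genes gave 5 falls and 0 rises among 20 (25% called lower beside 1.38% of all genes), with a median of −0.28. *Ccn2*, the connective tissue growth factor, had 1274, 1234, 1270 and 853 on the HU arrays and 2230, 2442, 2718 and 1945 on the WB arrays (−1.02, SE 0.15, adjusted p = 0.0068). *Sdc4* (syndecan-4) fell by 0.85, *Vcan* (versican) by 0.74, *Comp* by 0.73 and *Aspn* (asporin) by 0.49, whereas *Dcn* (decorin) was at −0.07. *Comp* was called in 4 of the 8 fits without 1 array and *Vcan* and *Aspn* in 1 each. *Fstl1*, a secreted follistatin-like protein of fibroblasts, fell by 1.00. Tendon markers were examined as a sign of how much tendon was in the dissected piece. Of 9 measured 2 fell (22.2% beside 1.38% of all genes), *Tnmd* (tenomodulin, −0.86) and *Comp*, which is in both lists. The median was −0.38, with 6 negative and 3 positive values. The summed intensity of the list ran from 10760 to 15650 on the HU arrays and from 14260 to 17160 on the WB arrays. On HU replicate 4 the tendon list mean was −0.06 relative to the WB mean, inside the range of the WB arrays (−0.17 to 0.10). On that array the list mean was −0.31 for matricellular and proteoglycan genes. For collagens and matrix enzymes it was −0.415, the highest of the HU arrays. WB replicate 4 was the lowest WB array in the tendon (−0.17), matricellular (−0.24) and collagen (−0.38) lists. *Scx*, the transcription factor that defines tendon cells, averaged 49.8 in HU and 44.0 in WB muscle and was not called. The part of tendon in the matrix falls was not tested.

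The matrix calls depended on single arrays. The count of falls among the 35 collagens and matrix enzymes was 22 without WB replicate 4, 20 without WB replicates 2 and 4, 8 without WB replicate 3, 5 without WB replicate 1 or HU replicate 2, 3 without HU replicate 1 and 2 without HU replicate 3. Calls made in all 8 fits were those of *Col1a1* (its dimmer probe set, largest adjusted p = 0.038), *Col3a1* (0.048), *Fn1* (0.045), *Ccn2* (0.023), *Sdc4* (0.040) and *Fstl1* (0.045). The list mean lay 0.41 to 0.76 below the WB mean on the HU arrays, and WB replicate 4 lay 0.38 below it, against 0.09 to 0.18 above it for the other WB arrays.

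**Figure D3:**
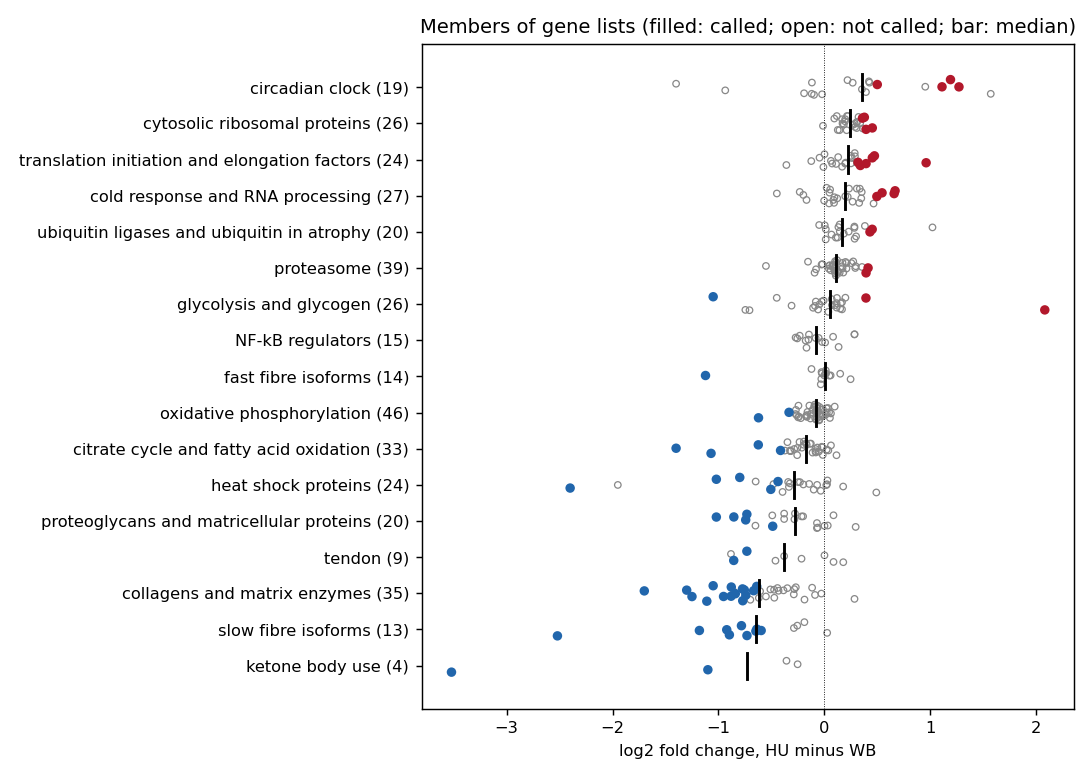
Log2 fold change (HU minus WB, x axis) of each measured member of 17 gene lists, 1 row per list with the number measured in parentheses; filled points are called (red higher, blue lower), open points are not, and the black bar is the list median. The medians run from 0.35 (circadian clock) at the top to −0.73 (ketone body use) at the bottom.

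Of 24 heat shock protein genes measured 5 fell (20.8% beside 1.38% of all genes) and 0 rose, with a median of −0.29. *Hspa1b*, an inducible HSP70, had 209, 721, 611 and 182 on the HU arrays, against 1115, 4654, 2006 and 1263 on the WB arrays (−2.40, SE 0.52, adjusted p = 0.029). The WB arrays spread over more than 4-fold, and without HU replicate 1 the adjusted p was 0.099. The near-identical neighbour *Hspa1a* gave −1.95 (adjusted p = 0.077), and probes for the 2 genes may share transcripts. *Dnaja1*, an HSP40 co-chaperone, had 446, 613, 613 and 506 on the HU arrays and 1176, 1102, 1161 and 953 on the WB arrays (−1.02, SE 0.12, adjusted p = 0.0032). *Hsp90aa1*, the inducible HSP90, fell by 0.80, *Dnajb4*, another HSP40, by 0.51 and *Hsph1* (HSP105) by 0.44. *Dnaja1* and *Hsp90aa1* were called in all 8 fits without 1 array, *Hspa1b* in 4, *Hsph1* in 2 and *Dnajb4* in 1 (adjusted p = 0.14 without HU replicate 1). The constitutive *Hspa8* (−0.20), the small *Hspb1* (−0.23) and the mitochondrial *Hspd1* (−0.07) and *Hspe1* (−0.10) were not called.

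Heat shock factor 1 binds inverted repeats of the unit GAA, and RefSeq promoter windows (build GRCm38.p6, 250 bases before to 50 bases after a transcript's start) were searched for 2 such motifs, GAANNTTC and TTCNNGAA. Each motif reads the same on both strands, and 2 matches may share a GAA. Of all 32851 windows in the table, 15.1% hold a match. Of the called genes *Hspa1b*, *Dnaja1*, *Dnajb4* and *Hsph1*, all 4 have at least 1 window with a match, which is 5 of their 8 windows (62.5%), and so do 7 of the 15 other measured heat shock genes with a window (7 of 19 windows, 36.8%). *Hsp90aa1* has no window in the table. A match is a description of the sequence and not a binding site shown in this muscle. Windows of 3 of these genes are given to show the motif in the promoters of the genes described above, with matches in capitals, on the strand of the gene. They lie at chr17:34959189-34959488 (minus strand, match starting 104 bases before the start of *Hspa1b*), chr4:40722218-40722517 (plus strand, 124 bases before the start of *Dnaja1*) and chr5:149636287-149636586 (minus strand, 3 matches starting 33 bases before and 36 and 41 bases after the start of *Hsph1*, the last 2 sharing bases).
Hspa1b: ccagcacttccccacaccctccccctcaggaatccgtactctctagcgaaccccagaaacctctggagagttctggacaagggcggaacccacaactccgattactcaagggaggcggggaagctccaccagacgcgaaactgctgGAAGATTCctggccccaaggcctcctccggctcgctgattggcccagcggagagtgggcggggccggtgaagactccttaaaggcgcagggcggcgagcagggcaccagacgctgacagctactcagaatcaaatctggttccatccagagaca
Dnaja1: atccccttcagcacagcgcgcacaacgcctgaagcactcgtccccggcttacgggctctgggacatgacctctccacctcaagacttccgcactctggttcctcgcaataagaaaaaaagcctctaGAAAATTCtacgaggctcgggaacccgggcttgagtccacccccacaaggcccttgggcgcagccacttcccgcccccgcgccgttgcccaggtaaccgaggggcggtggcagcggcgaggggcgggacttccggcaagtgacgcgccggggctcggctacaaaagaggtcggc
Hsph1: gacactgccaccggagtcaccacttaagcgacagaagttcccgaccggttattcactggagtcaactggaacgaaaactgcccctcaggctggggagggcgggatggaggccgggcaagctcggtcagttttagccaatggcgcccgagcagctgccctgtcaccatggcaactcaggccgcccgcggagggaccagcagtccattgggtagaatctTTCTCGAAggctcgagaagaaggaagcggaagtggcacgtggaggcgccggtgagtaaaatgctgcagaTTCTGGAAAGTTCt

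Clock genes gave 4 rises and 0 falls among 19, which is 21.1% called higher beside 4.06% of all genes. Their median of 0.35 became 0.14 when all probe sets of a gene were averaged. *Nr1d1*, the repressor REV-ERBα, had 355, 219, 268 and 242 on the HU arrays, against 186, 106, 98.8 and 76.0 on the WB arrays (1.27, SE 0.24, adjusted p = 0.018). *Rora*, which binds the same DNA elements as an activator, had 2041, 1684, 1821 and 1458 on the HU arrays and 846, 582, 1009 and 842 on the WB arrays (1.11, SE 0.16, adjusted p = 0.0068). *Bhlhe40* (DEC1), another repressor of the clock, rose by 1.19 and *Csnk1e*, the kinase that marks PER proteins for degradation, by 0.50. *Rora* and *Bhlhe40* were called in all 8 fits without 1 array, *Nr1d1* in 6 and *Csnk1e* in 5 (adjusted p up to 0.068 without HU replicate 1 and 0.067 without HU replicate 3). Other members split the HU arrays, and 3 of them, chosen after their values were seen, show how. *Dbp*, an output factor of the clock, had 1616, 251, 331 and 2684 on the HU arrays and 297, 251, 230 and 273 on the WB arrays (1.57, adjusted p = 0.18). *Arntl* (BMAL1), the activator that peaks opposite to it, had 105, 179, 188 and 36.4 on the HU arrays and 163, 217, 278 and 174 on the WB arrays (−0.94, adjusted p = 0.24). HU replicates 1 and 4 were thus high in *Dbp* and low in *Arntl*, and HU replicates 2 and 3 lay inside or near the WB range. *Nfil3*, a repressor of the *Dbp* family's targets, averaged 472 ± 269 in HU and 1098 ± 232 in WB muscle (SD, n = 4 each; −1.40, adjusted p = 0.051).

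Genes of protein synthesis gave small rises and no falls. Of 26 cytosolic ribosomal proteins measured 4 rose (15.4% beside 4.06% of all genes) and 0 fell. The rises were *Rps19* (0.45), *Rpl35* (0.39), *Rps18* (0.38) and *Rpl7a* (0.36), 25 genes had a positive value and the median was 0.24. *Rps19* had 4154, 3901, 3740 and 3687 on the HU arrays and 2784, 2686, 3120 and 2735 on the WB arrays. On the scale of list means the HU arrays lay 0.21 to 0.29 above the WB mean and the WB arrays from 0.05 below to 0.07 above it. Of 24 translation factors 6 rose (25% beside 4.06% of all genes) and 0 fell, with a median of 0.23. The rises were led by *Eif4ebp1*, the repressor of cap-dependent translation that mTOR switches off, with 1816, 1630, 2149 and 1332 on the HU arrays and 818, 919, 889 and 885 on the WB arrays (0.96, SE 0.13, adjusted p = 0.0054). The initiation factors *Eif4b* (0.47), *Eif3e* (0.45) and *Eif2s2* (0.34), the elongation factor *Eef1b2* (0.32) and *Eef2k*, the kinase that inhibits elongation (0.39), made up the rest. These calls were sensitive to single arrays, since the ribosomal count was 0 without HU replicate 1, 2 or 3 or WB replicate 1 and 5 without WB replicate 2 or 3, and only *Eif4ebp1* of the translation factors was called in all 8 fits. The translation factor count was 2 when the arrays were quantile normalised again.

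Cold response and RNA processing gave 4 rises and 0 falls among 27 genes (14.8% called higher beside 4.06% of all genes, median 0.20). *Cirbp*, the cold-inducible RNA-binding protein, had 534, 404, 473 and 478 on the HU arrays and 291, 267, 317 and 312 on the WB arrays (0.67, SE 0.11, adjusted p = 0.0089). The splicing factors *Srsf5* (0.66) and *Srsf6* (0.49) and the nuclear speckle protein *Son* (0.54) rose as well. *Cirbp* and *Srsf5* were called in all 8 fits without 1 array, *Son* in 3 and *Srsf6* in 2, with adjusted p up to 0.12 and 0.14 without HU replicate 1.

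Over 3 lists of protein degradation, the shares of genes called higher were 5.13% (proteasome), 10.0% (ubiquitin ligases) and 14.8% (lysosome, autophagy and calpain), beside 4.06% of all genes. Of 39 proteasome genes 2 rose and 0 fell, *Psmd4* (0.41), a ubiquitin receptor of the proteasome cap, and *Psmd2* (0.39) of its base, while 33 had a positive value and the median was 0.11. Of 20 ubiquitin ligases and related genes 2 rose, *Fbxo9*, an F-box protein (0.45), and *Cul3*, a cullin scaffold (0.43), 0 fell and the median was 0.16. Of 27 lysosomal, autophagy and calpain genes 4 rose, the autophagosome proteins *Map1lc3a* (0.66) and *Map1lc3b* (0.38) and the calpains *Capn3* (0.44) and *Capn2* (0.41), and 2 fell, the cathepsins *Ctsk* (−0.80), known from osteoclasts and fibroblasts, and *Ctsh* (−0.65). The falls were 7.41% of this list, beside 1.38% of all genes. *Map1lc3a* had 3589, 4462, 4440 and 4186 on the HU arrays and 2722, 3165, 2652 and 2066 on the WB arrays, with no overlap. None of these calls held in all 8 fits without 1 array. The proteasome count was 2 without WB replicate 2 or 3, 1 without WB replicate 4 and 0 without any 1 of the other arrays, and the adjusted p of *Map1lc3a* reached 0.073 without HU replicate 3.

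The study lists 25 genes with a known or inferred part in atrophy, and all 25 were measured here by the probe sets it used. They were chosen partly for not passing its criteria for a rise on these same *Bcl3-/-* arrays, so their count of calls is a description that the choice bears on, and is not independent evidence of how atrophy genes responded. Of these 4 rose and 0 fell, *Eif4ebp1* (0.96), *Fbxo9* (0.54), *Psmd2* (0.39) and *Psmd4* (0.39). The study classed *Eif4ebp1* and *Fbxo9* as Bcl-3 targets. By qPCR it reported for both, in unloaded *Bcl3-/-* muscle, either no rise or a significantly smaller one than in wild type muscle. The median log2 fold change of the 25 genes was 0.18, 22 had a positive value, and 9 had an unadjusted limma p under 0.05. Over all 19285 probe sets tested, 4.14% were called higher and 4300 had an unadjusted limma p under 0.05. *Fbxo32*, the muscle ubiquitin ligase atrogin-1, had the widest spread of the list, with 1222, 2898, 3460 and 407 on the HU arrays, against 590, 925, 611 and 891 on the WB arrays. HU replicate 4 lay below all WB arrays and HU replicates 2 and 3 at more than 3 times the highest of them, and the log2 fold change of 1.02 (SE 0.55) was not called (adjusted p = 0.30). *Ankrd1*, the stretch-responsive ankyrin repeat protein CARP, had 79.4, 69.4, 187 and 176 on the HU arrays and 58.1, 190, 72.3 and 44.7 on the WB arrays, and its groups overlap (0.59, adjusted p = 0.47). *Runx1* (0.10), *Tnfrsf12a*, the Tweak receptor (−0.06), *Foxo3* (0.02), *Jun* (0.00) and *Ctsl* (0.23) were not called, and the *Runx1* probe set lay near the floor of the arrays. Leaving out HU replicate 3 gave an adjusted p of 0.10 for *Fbxo9*, 0.15 for *Psmd4* and 0.16 for *Ube2j1*, an E2 enzyme at 0.50 (adjusted p = 0.054 with all arrays, and a log2 fold change of 0.01 in its brighter probe set), and *Psmd2* reached 0.086 without HU replicate 1.

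The array that was low in *Fbxo32* was also low in glucocorticoid-responsive genes. None of the 22 measured was called, in a list too short to read this against the 5.43% of all genes called. *Ddit4* (REDD1), an inhibitor of mTOR, had 1761, 2977, 3177 and 680 on the HU arrays and 4376, 4632, 4601 and 4178 on the WB arrays, without overlap (−1.28, SE 0.39, adjusted p = 0.086). *Mt2*, a metallothionein, had 1406, 2821, 4049 and 556 on the HU arrays and 2301, 3180, 2718 and 1811 on the WB arrays. *Dusp1*, a MAP kinase phosphatase, had 4622, 3197, 3424 and 2092 on the HU arrays and 5409, 6065, 6545 and 3756 on the WB arrays. The mean of the glucocorticoid list, relative to the WB mean, was −0.14, 0.09, 0.18 and −0.78 on the HU arrays and between −0.20 and 0.22 on the WB arrays. The part of this difference between arrays in the *Fbxo32* value was not tested.

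**Figure D4:**
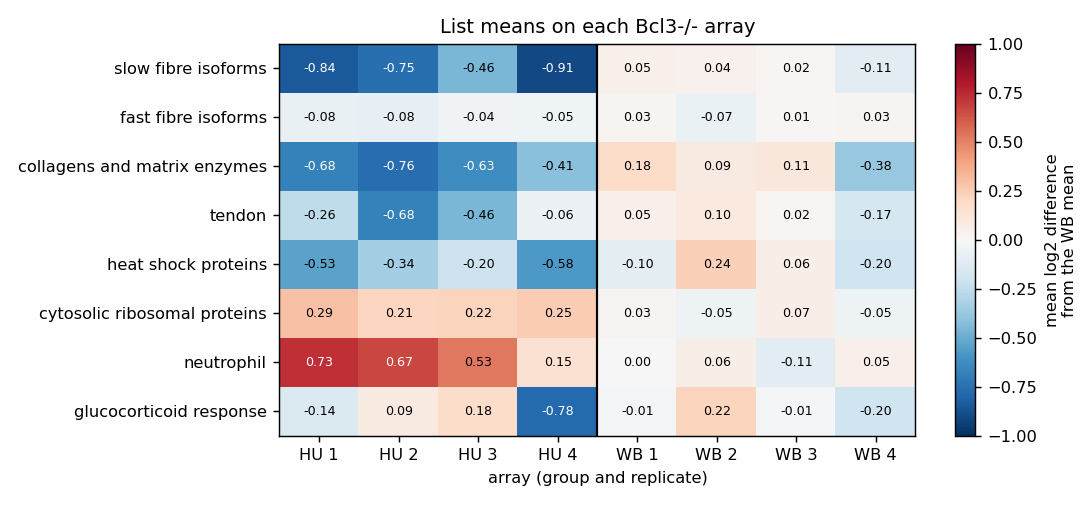
Mean log2 difference from the WB mean of 8 gene lists (rows) on each *Bcl3-/-* array (columns, 4 HU left of 4 WB); red is higher and blue lower, and the cell gives the value. Slow fiber isoforms are lower on all 4 HU arrays, collagens are also low on WB 4 (−0.38), and the neutrophil and glucocorticoid lists set HU 4 apart from the other HU arrays.

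None of 19 genes of the NF-κB system was called, in lists too short to read this against the 5.43% of all genes called. Of the 4 subunit genes measured, *Rela* (p65) averaged 395 in HU and 350 in WB muscle (0.18), *Nfkb2* (p52) 165 and 209 (−0.33), *Relb* 62.0 and 68.2 (−0.10) and *Rel* 31.9 and 33.1 (−0.05), and *Nfkb1* has no listed probe set on this array. All 15 regulators measured were uncalled as well, with values from −0.27 to 0.28, among them the inhibitor *Nfkbia* (−0.23), itself an NF-κB target, and the deubiquitinase *Tnfaip3* (−0.15). The regulators include *Bcl3* (−0.05), which by design is deleted in both groups, so its lack of a call is not a result. These values concern transcript levels only and not nuclear entry or DNA binding. In cytokine and TNF receptor signalling 1 of 20 genes rose, *Il6st* (gp130, 0.52), a share of 5% that lies near the 4.06% of all genes. For *Il6st*, 5 of the 8 fits without 1 array made the call, with an adjusted p up to 0.068 (without HU replicate 1).

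Growth factor pathways held some of the larger rises. *Acvr2b*, the activin receptor that binds myostatin, had 417, 343, 324 and 392 on the HU arrays, against 219, 118, 166 and 163 on the WB arrays (1.18, SE 0.17, adjusted p = 0.0060), and its paralogue *Acvr2a* had 1156, 1033, 1313 and 1064 on the HU arrays and 729, 751, 675 and 735 on the WB arrays (0.65, SE 0.10, adjusted p = 0.0070). *Tmem100*, a membrane protein induced by BMP9 and ALK1 in endothelium, had 956, 1242, 2102 and 382 on the HU arrays and 147, 288, 168 and 184 on the WB arrays (2.38, SE 0.42, adjusted p = 0.014). *Bmp4*, a ligand of the same superfamily, rose by 0.62. With *Fstl1* as the only fall (3.7% beside 1.38% of all genes), this list had 4 rises among 27 genes (14.8% beside 4.06%) and a median of 0.07. All 5 of its calls except that of *Bmp4* were made in all 8 fits without 1 array. Of 29 genes of IGF, Akt and FoxO signalling 3 rose, *Gsk3b* (glycogen synthase kinase 3β, 0.93), *Pik3r1* (the p85α subunit of PI3 kinase, 0.84) and *Tsc1* (an inhibitor of mTOR, 0.38), and 1 fell, *Igfbp4* (−0.58). Rises were thus 10.3% and falls 3.45% of the list, beside 4.06% and 1.38% of all genes. None of the 4 held in all 8 fits, with adjusted p up to 0.059 for *Gsk3b* and 0.12 for *Igfbp4* (both without HU replicate 1).

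Several large changes lay outside these groups. *Cyp1a1*, the cytochrome induced by the aryl hydrocarbon receptor, had 94.1, 179, 198 and 106 on the HU arrays and 40.5, 38.7, 48.1 and 46.1 on the WB arrays (1.67, SE 0.22, adjusted p = 0.0043). *Inmt*, an indole N-methyltransferase, had 624, 818, 966 and 709 on the HU arrays and 198, 366, 178 and 247 on the WB arrays (1.69, SE 0.21, adjusted p = 0.0032). *Chac1*, which degrades glutathione, had 2545, 2018, 1945 and 1392 on the HU arrays and 709, 1018, 306 and 386 on the WB arrays (1.84, SE 0.33, adjusted p = 0.015). It was the 1 called gene among 20 of the amino acid stress response (5% beside 4.06% of all genes called higher), a program in which *Trib3* was at 0.03. *Myo5a*, the vesicle motor myosin Va, rose by 2.11, *Arrdc4*, an arrestin of the family that restrains glucose uptake, by 1.31 and *Gadd45b*, a stress gene, by 1.01. *Cldn5*, the tight junction claudin of endothelium, had 329, 483, 512 and 256 on the HU arrays and 170, 163, 166 and 134 on the WB arrays (1.27, adjusted p = 0.0088), whereas the endothelial markers *Pecam1* (−0.08), *Cdh5* (−0.09) and *Kdr* (0.02) were not called. *Egfl7*, a secreted protein of endothelium, rose by 0.60 and was the other call among 14 endothelial markers (14.3% called higher). Among the falls were *Pcp4l1*, a small IQ motif protein, with 96.8, 123, 136 and 135 on the HU arrays and 350, 405, 495 and 367 on the WB arrays (−1.72, SE 0.14, adjusted p = 0.00036), *Lgi1*, a secreted leucine-rich repeat protein (−1.46), and *Ecrg4*, a secreted peptide precursor (−1.43). Of the genes of this paragraph, *Chac1* lost its call without HU replicate 1 (adjusted p = 0.060) and in 1 other fit, *Egfl7* was called in 2 of the 8 fits without 1 array (up to 0.13, without HU replicate 3), and the other called genes kept their calls.

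Smaller counts came from the remaining lists, and they stand beside 4.06% of all genes called higher and 1.38% called lower. Of 21 genes of fatty acid and sterol synthesis 3 rose, *Fdft1* (squalene synthase, 0.77), *Srebf1* (the lipogenic factor SREBP-1, 0.71) and *Acacb* (acetyl-CoA carboxylase 2, 0.56), and 0 fell. Of 29 glutathione and antioxidant genes 3 rose, the glutathione transferases *Gstt2* (0.96), *Gstm2* (0.43) and *Gstm5* (0.36). Of 17 genes of the p53 pathway 3 rose, *Gadd45b*, *Perp*, a desmosome protein (0.65), and *Phlda3*, an inhibitor of Akt (0.59). Of 18 ankyrin repeat and Z-disc genes 2 fell, the slow fiber protein *Myoz2* (−0.60) and *Actn2* (−0.50), and *Vegfb* (−0.76) was the 1 fall among 18 angiogenic factors. Of 26 immediate early genes 2 fell, *Ccn2* and *Zfp36*, the mRNA-destabilising tristetraprolin (−1.01). Of 16 genes of acetylcholine receptors and denervation 0 were called, with *Ncam1* at 85.0 ± 3.81 in HU and 93.9 ± 10.8 in WB muscle and *Chrna1* at 509.6 ± 61.6 and 415 ± 110 (SD, n = 4 each). Interferon response (25 genes) and MHC antigen presentation (15 genes) also gave 0 calls, beside 5.43% of all genes. *Fdft1*, *Gstt2*, *Gadd45b*, *Perp* and *Ccn2* were called in all 8 fits without 1 array, and the other calls of this paragraph were lost in at least 1, with a largest adjusted p of 0.14.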

How the data were processed

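Total RNA of calf muscle was labelled with a two-cycle cDNA kit, hybridised to Affymetrix Mouse Genome 430A 2.0 arrays, and made into linear intensities by the authors with RMA background correction, summarisation and quantile normalisation in GenePattern 3.2.1, per the study's methods, before they were deposited. The deposited intensity values were used as log2. Of 22690 probe sets 64 were controls, and of the other 22626 the platform annotation lists 1 gene for 20380, several for 691 and none for 1555. The 19285 probe sets above 20 on at least 4 of the 8 *Bcl3-/-* arrays were fitted with limma 3.58.1 (R 4.3.3; tables in Python 3.11.15 with pandas 2.3.3 and numpy 2.4.6), two-sided, with Benjamini-Hochberg adjustment over all of them and a call at an adjusted p under 0.05. Groups were taken from the sample titles. All adjusted p values are from limma. They set the HU minus WB difference against the spread between mice within groups, pooled over both groups of 4 and moderated across probe sets. A gene in a list is represented by its brightest probe set.

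Named genes were the 12 largest non-overlapping rises and falls, up to 4 called members of each list (or 2 uncalled), the study's 25 atrophy genes, *Bcl3* and the NF-κB subunits. Other list members with values were added as examples after their values were seen. The arrays, lists and rules were chosen with earlier results of these data known. The fit was tested on simulated data. Alternatives changed the filter, scaling, offset, variance model, test, arrays and replicate block. The number of arrays limits the precision.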

Additional observations from a re-analysis of the deposited data

Results flagged for a closer look

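Among 304 groups of 4 values examined, 11 held 1 array whose gap to the nearest other array, as a share of the group's range, exceeded Dixon's 95% critical value, and chance alone flags about 1 in 20. Of these, 5 concerned WB replicate 4 as the lowest WB array. *Cldn5* was 134 there, against 163 to 170 on the other WB arrays. *Bdh1* was 329, against 372 to 374. *Cacng1* was 2225, against 2805 to 2872. *Col1a2* was 6427, against 8611 to 8786. *Iigp1*, an interferon-induced GTPase that was not called, was 68.2, against 539 to 712.

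On the HU arrays, *Bdh1* was 20.1 on replicate 1, against 36.1 to 36.8 on the others, *Ccn2* was 853 on replicate 4, against 1234 to 1274, and *Serpinh1* was 710 on replicate 4, against 366 to 409. *Hsp90aa1* was 947 on HU replicate 3, against 798 to 821, and *Fbxo36*, an F-box gene that was not called, was 153 on HU replicate 3, against 168 to 171. The array median of 86.8 on HU replicate 4 stood above those of the other HU arrays.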

How the results depend on the processing

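With all 8 arrays 799 probe sets rose and 242 fell, and no called gene that the text names by rule changed sign under any alternative. Leaving out 1 array gave 164 to 933 rises, 67 to 351 falls and a share of rises of 57.4% to 82.8%. The calls moved by over 1.5 times without HU replicate 1 (170 rises and 67 falls), HU replicate 2 (289 and 96), HU replicate 3 (164 and 79), HU replicate 4 (446 rises), WB replicate 1 (314 and 87) or WB replicate 4 (472 rises). Leaving out WB replicates 2 and 4 together, chosen after seeing the data, gave 506 rises and 401 falls (55.8% rises). The study's own filter gave 285 rises (58.3% of calls), quantile normalisation repeated on the arrays 511 and 369 (58.1%), array weights 1390 and 754 (64.8%), a fit of all 24 arrays 1465 and 542, and a minimum fold of 1.4 463 rises. The methods' t-test gave 68 rises and 16 falls after Benjamini-Hochberg adjustment and 328 and 121 by q-values. The cause of these shifts was not tested, and fits that left out arrays also had fewer arrays.

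The replicate numbers are shared by HU and WB mice, and the deviations of same-numbered arrays correlated at −0.10, −0.01, 0.04 and −0.17, so the numbers were not taken as pairs. A fit with replicate block gave 352 rises and 147 falls. Of 107 named probe sets that were called, 46 were called in all fits without 1 array and 61 were lost in at least 1. Probe sets near the floor of the arrays give uncertain fold sizes.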

Other observations

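Satellite cell and regeneration genes gave 1 rise and 0 falls among 16, *Myf5*, a myogenic determination factor (0.53). That share, 6.25%, lies near the 4.06% of all genes called higher. Cell cycle genes gave 1 fall among 23 (4.35% beside 1.38% of all genes), *Ccna2* (cyclin A2, −0.37), with a median of −0.14. Of 14 regulators of mitochondrial biogenesis 1 rose, the deacetylase *Sirt1* (0.65), and 1 fell, *Ppargc1a*, each 7.14% of the list. *Mbp*, a myelin protein, was at 0.96 and was not called (adjusted p = 0.089). *Myf5* was called in 2 and *Sirt1* and *Ccna2* in 1 of the 8 fits without 1 array each, and *Ccna2*, at 25.2 in HU and 32.6 in WB muscle, lay near the floor of the arrays.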
